A study of Mus musculus with 8 samples.

Results

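The 8 genes described here encode subunits of the integrins by which white blood cells attach to other cells and to matrix: Itgal, Itgam, Itga4, Itga5 and Itga6 for alpha subunits, and Itgb2, Itgb1 and Itgb7 for beta subunits. They were taken by name, not by a threshold on their values, and are 8 of the 13378 genes with junction reads in the deposited table. Their 197 exon-exon junctions are among the 134051 in it. RNA came from FT1CL, a mouse acute myeloid leukemia line grown from the bone marrow of Cop1 cKO/Rosa26-Cre-ERT2 mice. The mice were 8 weeks old and had received 5-fluorouracil, and their marrow was given Trib1 by a pMYs retrovirus and then kept in interleukin-3. All libraries therefore share the Trib1 vector, the floxed Cop1 alleles and the Cre transgene. The 4 Cop1WT libraries are untreated cells labelled Cop1 +/+, and the 4 Cop1KO libraries are cells labelled Cop1 ko/ko after 4-hydroxytamoxifen. The drug and the genotype changed together, so that their effects on the integrins cannot be told apart. FT1CL is a single line, and its labels do not state which cultures the libraries came from. The p-values thus measure the spread between libraries, which may be technical.

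An integrin is a pair of 1 alpha and 1 beta subunit, and a subunit without a partner is not carried to the cell surface. Itgb2 pairs with Itgal to form the lymphocyte function-associated antigen and with Itgam to form the Mac-1 receptor of neutrophils and macrophages. These receptors bind intercellular adhesion molecules, and Mac-1 also binds cleaved complement C3. Itga4 pairs with Itgb1 into a receptor for vascular cell adhesion molecule and fibronectin that holds blood progenitors in the marrow, and with Itgb7 into a receptor used for homing to the gut. Itga5 and Itga6 pair with Itgb1 and bind fibronectin and laminin. Cop1 is a ubiquitin ligase that, bound to Trib1, marks the myeloid transcription factor C/EBP alpha for destruction.

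Levels are junction reads summed over a gene and given per 1000000 junction reads of the library (RPM). The libraries held 17811247 to 20981993 junction reads in Cop1WT and 17333302 to 22469109 in Cop1KO, and the totals did not differ detectably (exact permutation test, two-sided, p = 0.60; the smallest p that 4 against 4 can give is 0.0286). Cop1 itself stood at 159 to 166 RPM in Cop1WT and 66.7 to 81.3 RPM in Cop1KO, a log2 difference of -1.13 ± 0.08 (SE, adjusted p = 0.000491), which follows the labels. Trib1 stood at 199 to 720.2 RPM in Cop1WT and 390.2 to 1379 RPM in Cop1KO (adjusted p = 0.16, and 0.021 in the blocked fit, which has a term for the replicate number), and vector and genomic transcripts were not told apart. Of the myeloid markers, Ptprc (the pan-leukocyte CD45) was at 379 to 903 RPM and Spi1 (the transcription factor PU.1) at 85.7 to 251 RPM over the 8 libraries. Hoxa9, a homeobox gene of many myeloid leukemias, was at 0 in libraries 1 and 2 of both groups and at 7.88 to 87.6 RPM in libraries 3 and 4. The mast cell and basophil gene Cpa3 was at 9119 to 14007 RPM in every library. Of the 9 myeloid and leukemia genes, 3 rose (Ptprc, Spi1 and Cd33) and 1 fell (Cd34). With 1 library left out, on all junctions, the log2 difference was 0.56 to 0.82 for Ptprc and 0.62 to 0.97 for Spi1. It was 2.93 to 3.70 for Cd33 and -1.80 to -1.20 for Cd34. Of the other markers, 1 of 4 megakaryocyte genes rose and 2 of 4 erythroid and 1 of 2 stroma genes fell. The 2 eosinophil, 3 T cell and 2 B cell genes tested did not pass. Over all genes tested, 8.49% rose and 12.1% fell. In the blocked fit 5 myeloid genes rose and 2 fell, 3 erythroid genes fell, 1 eosinophil gene rose and 1 fell, and 2 T cell genes and 1 B cell gene fell. Of all genes, 12.3% rose and 15.7% fell in that fit. The T cell marker Cd3d and the B cell marker Cd79a stayed below 1 RPM, and Col1a1 of stroma was at 0 in 7 of 8 libraries. In these bulk samples fewer cells of a type and less RNA per cell cannot be told apart.

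Itga4 fell and Itgb2 and Itgb1 rose in the Cop1KO libraries, while Itgal and Itgam were higher by values that missed the threshold, and Itgb7, Itga5 and Itga6 did not pass. This is 3 of 8 genes, 2 higher and 1 lower, at an adjusted p below 0.05 (limma on log2(RPM + 1)). Over all genes tested, 20.6% passed, 8.49% higher and 12.1% lower. Scaled by trimmed means (TMM) in place of the library total, the split over all genes turned from 934 higher and 1330 lower to 1092 higher and 972 lower (9.92% and 8.83%), and Itgal joined the risen integrins. The median log2 difference of the 8 genes was 0.35, and that of all genes tested -0.07. All 8 passed the minimum of 1 RPM. In 4 of 8, Itgal, Itgb2, Itgb1 and Itga4, no library of one group reached into the range of the other, against 25.1% of all genes tested (9.79% higher, 15.4% lower). In the blocked fit Itgal, Itgam and Itgb7 were added, giving 5 higher and 1 lower, against 28% of all genes (12.3% higher, 15.7% lower).

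**Figure D1:**
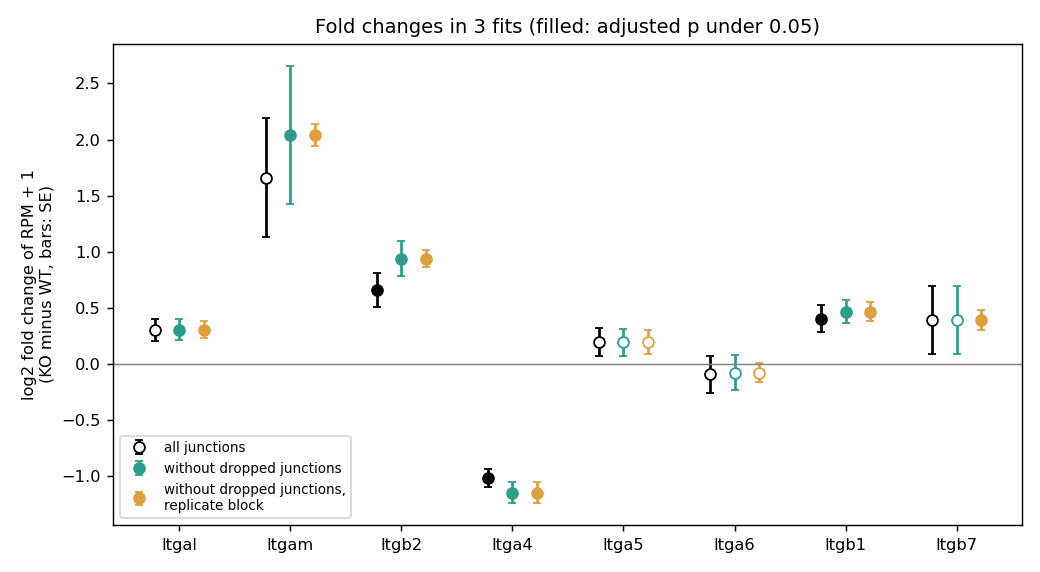
Log2 difference, Cop1KO minus Cop1WT, of the 8 integrin subunit genes (vertical axis, log2 of RPM + 1), with bars for ± 1 SE, in 3 fits: all junctions, without junctions that have a dropped value, and the latter with the replicate number as a block. Filled points passed an adjusted p of 0.05; Itga4 lies below 0 and Itgb2 and Itgb1 above 0 in each fit, and Itgam has the widest bars in the 2 fits without the block.

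A feature of the table bears on these sums. In 5 of the 8 genes some junctions held at most 6 reads in a library although at least 100 were predicted from the rest of the gene, and such values are called dropped here. They touched 37 of the 197 junctions: 13 of 33 in Itgam, 9 of 18 in Itgb2, 9 of 29 in Itga4, 4 of 16 in Itgb1 and 2 of 27 in Itga6. Itgal, Itga5 and Itgb7 had none. In Itgb2, the junction between blocks 8 and 9 had 665 reads in Cop1WT library 4 and 1 to 3 reads in each of the other 7. The junction between blocks 13 and 14 had 529 reads in Cop1WT library 2 and 1 to 4 in the other 7, while that between blocks 11 and 12 had 706 to 2171 reads in all 8. What made these values low was not tested. Over the whole table, the share of dropped values did not differ detectably between the groups (6.63% ± 0.43 in Cop1WT and 6.46% ± 0.27 in Cop1KO, SD, n = 4, exact permutation test, p = 0.54). Within a gene the groups could differ. In Itgam, the junction between blocks 26 and 27 had 79 to 408 reads in Cop1WT and 1 or 2 in Cop1KO. No Itgam junction had dropped values in Cop1WT alone. Sums without the affected junctions are given beside the full sums, and under them 4 integrins rose, Itgal, Itgam, Itgb2 and Itgb1, and Itga4 fell, against 10.4% higher and 16.4% lower of all genes. With the block as well, Itgb7 was added, against 15.2% and 21.6%. Without both libraries numbered 4, Itgam, Itgb2 and Itgb1 rose and Itga4 fell, against 11% and 14.1%. Itgal has no affected junction, so its own sums were the same in the fit without dropped junctions. Its pass there came with the sums of other genes, which enter its SE and the adjustment.

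**Figure D2:**
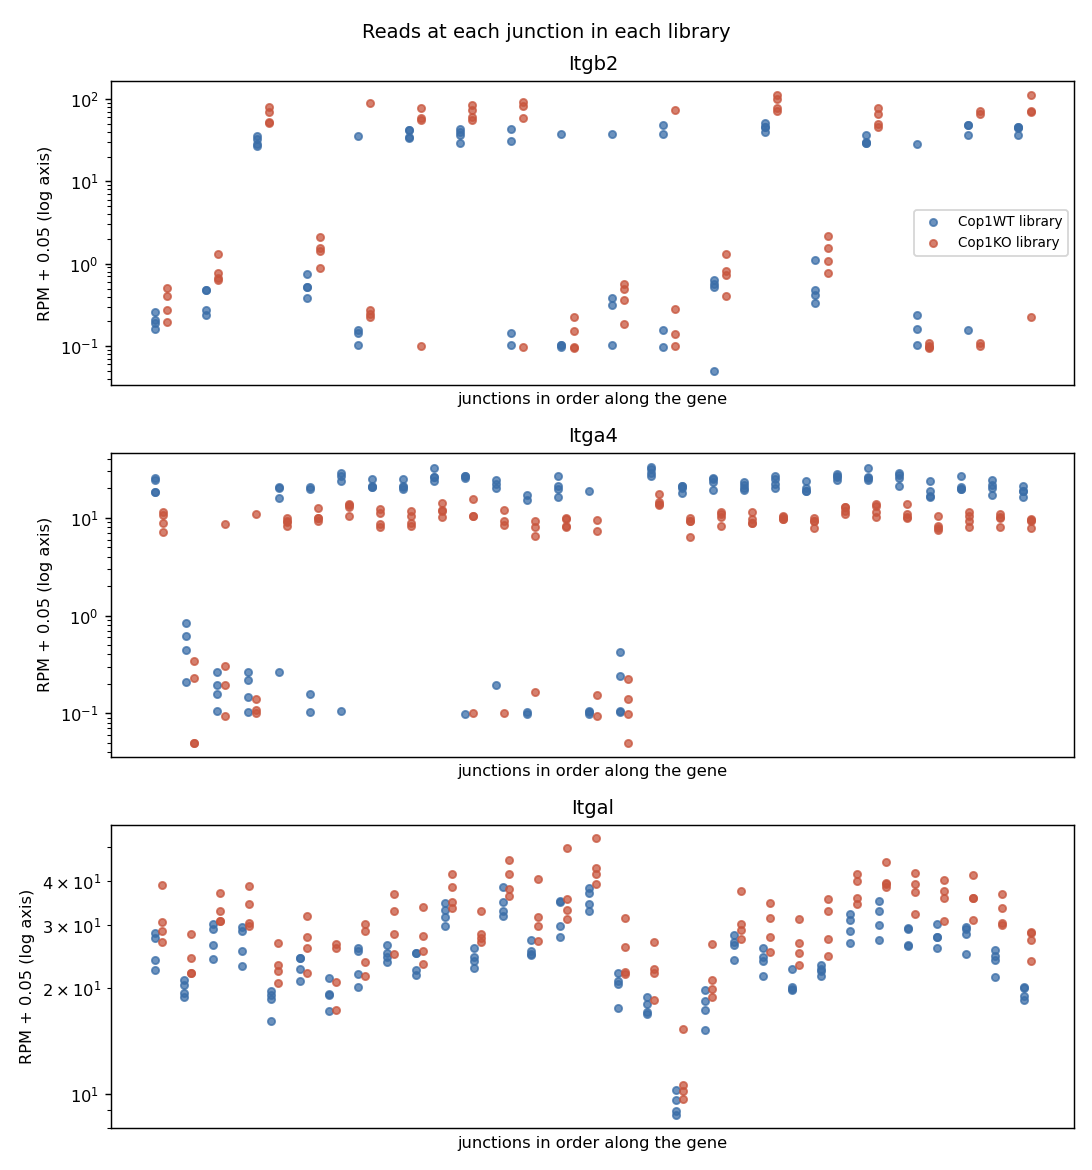
Reads per junction in Itgb2, Itga4 and Itgal, as RPM plus 0.05 on a log axis, along the junctions of each gene in order along the gene, with 1 point per library. Itgb2 and Itga4 show from 1 to 7 of the 8 libraries near the bottom of the axis at some junctions, as dropped values. Some other junctions of these genes are low in all 8 libraries and hold no dropped value. Itgal has no dropped value.

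**Figure D3:**
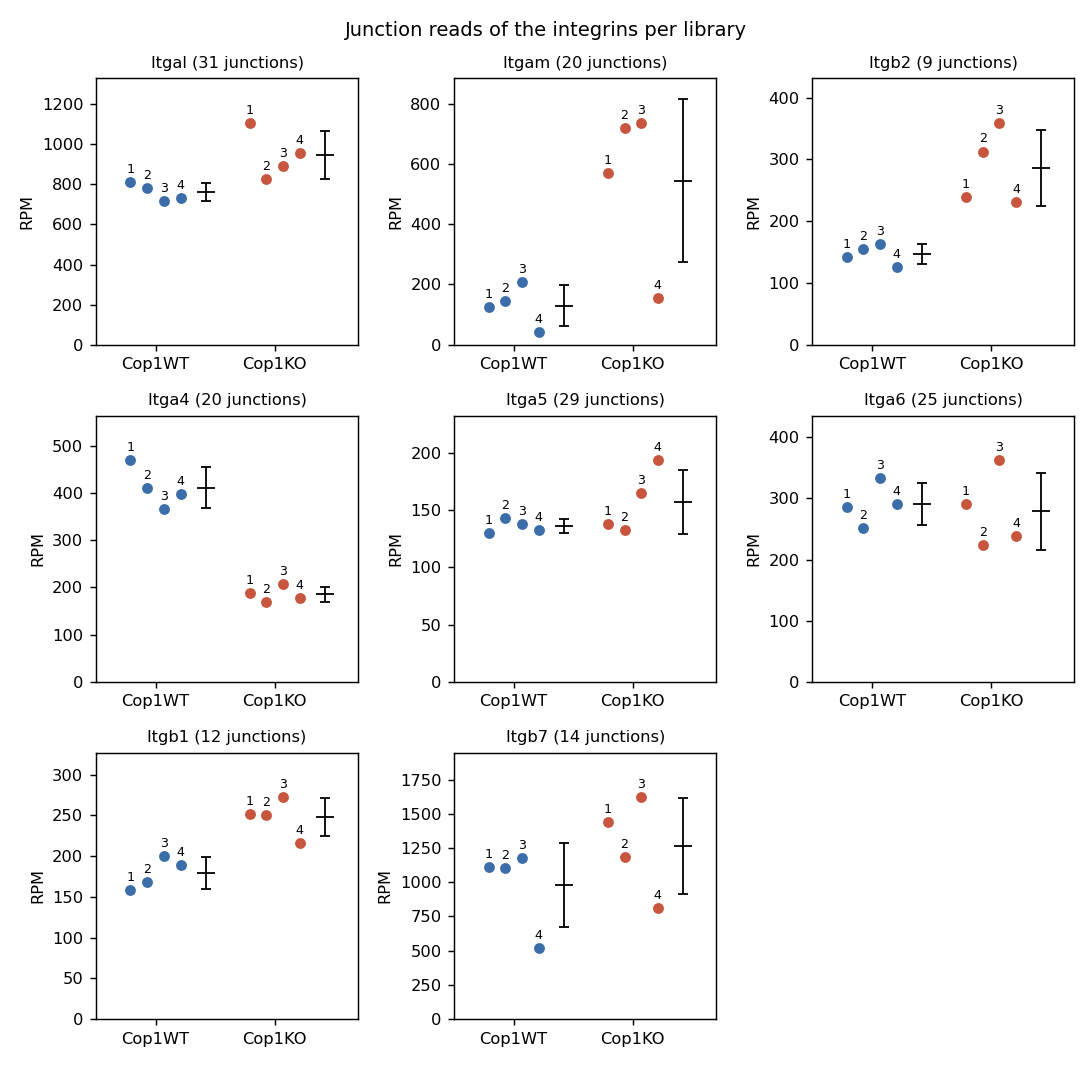
Level of the 8 integrin genes in each library (RPM, vertical axis from 0, without junctions that have a dropped value), with points numbered by library and a bar for the mean ± SD of 4. Itga4 is lower in all 4 Cop1KO libraries, Itgb2 and Itgb1 are higher in all 4, and library 4 of both groups is lowest for Itgam and Itgb7.

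Itgb2, the common beta subunit of the leukocyte integrins (ENSMUSG00000000290, chr10:77530252-77565708, mm10), stood at 269.7, 320.9, 342 and 410.6 RPM in Cop1WT libraries 1 to 4 and at 515, 475, 652 and 478 RPM in Cop1KO libraries 1 to 4. The highest Cop1WT library, number 4, kept reads at 8 of the 9 junctions that hold a dropped value, among them that between blocks 8 and 9. Over the 9 junctions without a dropped value the levels were 142, 156, 163 and 126 RPM in Cop1WT and 239, 313, 359 and 232 RPM in Cop1KO, and that library was the lowest. The groups did not overlap in either sum. Itgb2 rose by a log2 difference of 0.66 ± 0.15 (SE, adjusted p = 0.018), or 1.58-fold between the means, and without the dropped junctions by 0.94 ± 0.15 (adjusted p = 0.0042), or 1.95-fold. The call over all junctions was lost without Cop1WT library 2 (adjusted p = 0.053), and none of the 8 left-out libraries ended it over the junctions kept (highest adjusted p = 0.015). The median over all 18 junctions turned the sign, to -0.64 (adjusted p = 0.71), that median being at most 1.27 RPM in 7 libraries and 30.1 RPM in Cop1WT library 4.

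Itgal, the alpha subunit of the lymphocyte function-associated antigen (ENSMUSG00000030830, chr7:127296260-127335138, mm10), had no dropped value in its 31 junctions. Its levels were 814, 782, 716 and 733 RPM in Cop1WT libraries 1 to 4 and 1107, 828, 889.9 and 958 RPM in Cop1KO libraries 1 to 4. All 4 Cop1KO libraries lay above the highest Cop1WT library, the nearest by 828 against 814 RPM. The log2 difference was 0.31 ± 0.10 (adjusted p = 0.059), or 1.24-fold between the means. It passed in the blocked fit (adjusted p = 0.036), with TMM factors (0.036) in the fit without dropped junctions (0.043) and without Cop1KO library 2 (0.049), over a range of 0.017 to 0.13 in all alternatives run.

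Itgam, the alpha subunit of Mac-1, known as CD11b and used as a marker of maturing myeloid cells (ENSMUSG00000030786, chr7:128062640-128118491, mm10), had the largest log2 difference of the 8 in size over summed reads, though not by the median over junctions. It stood at 251, 292, 397 and 93.9 RPM in Cop1WT libraries 1 to 4 and at 816, 1177, 947 and 304 RPM in Cop1KO libraries 1 to 4. Library 4 was the lowest of each group, and Cop1KO library 4 lay below Cop1WT library 3, so that the groups overlapped. Within each replicate number the Cop1KO library was the higher, 4 of 4. The log2 difference was 1.66 ± 0.53 (adjusted p = 0.058), or 3.14-fold between the means. Over the 20 junctions without a dropped value it was 2.04 ± 0.61 (adjusted p = 0.040), or 4.21-fold. In the blocked fit Itgam passed on all junctions (1.66 ± 0.12, adjusted p = 0.0016), and so it did without both libraries numbered 4 (1.65 ± 0.20, adjusted p = 0.0027). Over all alternatives its adjusted p ran from 5.4e-05 to 0.67, and its log2 difference from 0.54 (median over junctions, adjusted p = 0.67) to 2.57. On all junctions it passed in only 1 of 8 fits with a library left out, that without Cop1KO library 4, and on the junctions kept in 2 of 8, without Cop1WT library 3 or Cop1KO library 4.

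Markers of late neutrophils moved with Itgam, and 6 of 8 rose. Over all genes tested 8.49% rose, and 12.3% in the blocked fit, and the marker counts below stand beside these shares. Their summed level was 7.86 to 48.5 RPM in Cop1WT and 393 to 9877 RPM in Cop1KO, with library 4 the lowest of each group as it was for Itgam. Ltf (lactoferrin) had a log2 difference of 7.44 ± 0.93 (adjusted p = 0.0027), and Mmp8 (neutrophil collagenase) one of 6.19 ± 1.05 (adjusted p = 0.0071), and both passed with any 1 library left out. Monocyte and macrophage markers summed to 486 to 902 RPM in Cop1WT and 634 to 1544 RPM in Cop1KO, with 1 of 7 higher (Cd14, a receptor for bacterial lipopolysaccharide, at 0 to 1.48 and 4.18 to 22.2 RPM), and 4 of 7 in the blocked fit. Mast cell and basophil markers summed to 12322 to 14298 and 12382 to 17542 RPM, with 5 of 9 higher, among them Mcpt8, a basophil protease (log2 difference 2.89 ± 0.47, adjusted p = 0.0061). The part of these cell types in the integrin differences was not tested.

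**Figure D4:**
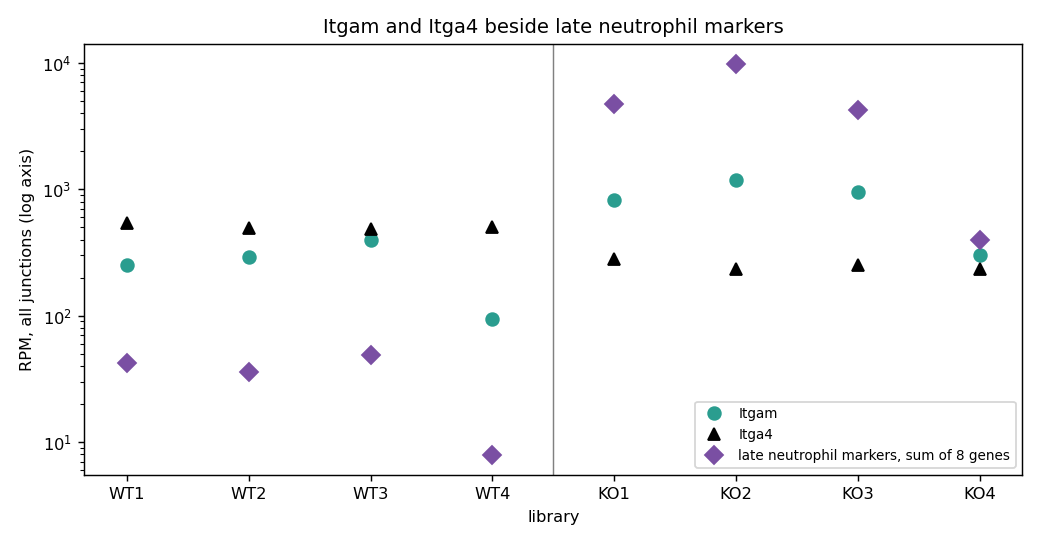
Level in each of the 8 libraries (RPM, log axis) of Itgam, Itga4 and the sum of 8 late neutrophil markers, by library number within each group. The neutrophil sum is 7.86 to 48.5 RPM in Cop1WT and 393 to 9877 RPM in Cop1KO; Itgam is lowest in library 4 of each group, and Itga4 is nearly level within each group.

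Itga4, the alpha subunit that pairs with Itgb1 and Itgb7 (ENSMUSG00000027009, chr2:79255426-79333123, mm10), fell in Cop1KO. Its levels were 540.4, 490.0, 488 and 504 RPM in Cop1WT libraries 1 to 4 and 281, 233, 249 and 235 RPM in Cop1KO libraries 1 to 4. The groups lay far apart and each was narrow, at 505 ± 24.4 and 249.6 ± 21.8 RPM (SD, n = 4). Itga4 fell by a log2 difference of 1.02 ± 0.08 (SE, adjusted p = 0.000708), so that the Cop1WT mean was 2.03-fold that of Cop1KO. Over the 20 junctions without a dropped value the levels were 471, 411, 367 and 399 RPM in Cop1WT and 188, 170, 206 and 178 RPM in Cop1KO, a log2 difference of -1.14 ± 0.09 (adjusted p = 0.000484). It passed in all 29 alternatives, with differences of -1.20 to -0.94 and adjusted p of 0.000325 to 0.0050. Unlike Itgam, it was not lowest in library 4.

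Itgb7, the other beta partner of Itga4 (ENSMUSG00000001281, chr15:102215995-102231944, mm10), stood at 1110.5, 1104, 1178 and 522 RPM in Cop1WT libraries 1 to 4 and at 1439, 1186, 1623 and 814 RPM in Cop1KO libraries 1 to 4. Library 4 was the lowest of both groups, and the groups overlapped through it. The log2 difference was 0.39 ± 0.30 (adjusted p = 0.40). It passed in the blocked fit (0.39 ± 0.10, adjusted p = 0.031), and over all alternatives its adjusted p ran from 0.013 to 0.76. Without both libraries numbered 4 it was 0.31 ± 0.12 (adjusted p = 0.094), without Cop1WT library 4 alone 0.12 (adjusted p = 0.76) and without Cop1KO library 4 alone 0.59 (adjusted p = 0.17).

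Itgb1, the beta subunit shared by the receptors for fibronectin, laminin and collagen (ENSMUSG00000025809, chr8:128685654-128733200, mm10), stood at 182, 211, 231 and 225 RPM in Cop1WT libraries 1 to 4 and at 272, 269, 339.8 and 247 RPM in Cop1KO libraries 1 to 4. The groups did not overlap, the nearest libraries being at 231 and 247 RPM. Itgb1 rose by a log2 difference of 0.40 ± 0.12 (adjusted p = 0.044), or 1.33-fold between the means, and over the 12 junctions without a dropped value by 0.47 ± 0.10 (adjusted p = 0.011). On all junctions the call was lost without any 1 of the libraries other than Cop1KO library 4 (adjusted p 0.056 to 0.10) and held without that one (0.025). On the junctions kept it held in 8 of 8 such fits (highest adjusted p = 0.038).

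Its alpha partners Itga5 and Itga6 did not pass in any of the 29 alternatives. Itga5, the fibronectin-binding subunit (ENSMUSG00000000555, chr15:103344286-103366763, mm10), stood at 129.7, 143, 138 and 132 RPM in Cop1WT libraries 1 to 4 and at 138, 133, 165 and 194 RPM in Cop1KO libraries 1 to 4. The groups overlapped, and the log2 difference was 0.19 ± 0.12 (adjusted p = 0.30), and 0.089 without Cop1KO library 4. Itga6, the laminin-binding subunit (ENSMUSG00000027111, chr2:71745616-71858416, mm10), stood at 286, 251, 358 and 306 RPM in Cop1WT and at 299, 224, 363 and 251 RPM in Cop1KO. The groups overlapped, with a log2 difference of -0.09 ± 0.17 (adjusted p = 0.75) whose sign turned when Cop1KO library 2 was left out (0.02).

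Sequence before the transcript start was looked at for the 5 of 8 genes with a window in the RefSeq promoter table (GRCm38.p6, the mm10 assembly): Itgam, Itga4, Itga5, Itgb1 and Itgb7. The 250 bases before the start are shown for the 3 whose differences passed over the junctions without a dropped value: 2 that rose and 1 that fell. Capitals mark matches, on either strand, to the letters searched: TTGCNNAA for C/EBP, GAGGAAG for PU.1, GGGCGG for Sp1 and TGTGGT for RUNX. The windows are chr7:128062390-128062639 for Itgam, chr2:79255176-79255425 for Itga4 and chr8:128685404-128685653 for Itgb1, each on the plus strand.
Itgam: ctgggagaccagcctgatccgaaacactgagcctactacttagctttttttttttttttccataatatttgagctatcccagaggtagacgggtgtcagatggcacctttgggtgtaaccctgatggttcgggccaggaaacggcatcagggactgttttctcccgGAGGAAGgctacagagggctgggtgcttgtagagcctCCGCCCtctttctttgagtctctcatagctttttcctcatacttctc
Itga4: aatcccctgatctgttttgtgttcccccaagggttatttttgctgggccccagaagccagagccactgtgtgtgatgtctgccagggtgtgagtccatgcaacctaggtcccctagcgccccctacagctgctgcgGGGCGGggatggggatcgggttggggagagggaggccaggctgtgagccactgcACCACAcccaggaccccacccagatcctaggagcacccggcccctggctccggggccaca
Itgb1: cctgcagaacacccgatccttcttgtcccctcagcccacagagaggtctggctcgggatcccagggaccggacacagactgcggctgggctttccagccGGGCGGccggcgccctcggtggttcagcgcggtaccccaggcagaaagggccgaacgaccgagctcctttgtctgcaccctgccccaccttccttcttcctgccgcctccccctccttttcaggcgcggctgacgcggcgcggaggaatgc
The Itgam window holds GAGGAAG beginning 84 bases before the start and the Sp1 letters as CCGCCC beginning 47 bases before it. The Itga4 window holds GGGCGG at 114 bases and the RUNX letters as ACCACA at 60 bases before the start. The Itgb1 window holds GGGCGG at 151 bases. The C/EBP letters are in none of the 5 windows, which says only that these letters are not in these bases. Over all 32851 windows of the table, cut to the same length, 9.56% hold the C/EBP letters, 10.6% the PU.1 letters, 32.7% the Sp1 letters and 14.05% the RUNX letters. These matches describe the sequence and do not show binding.

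Levels can be set beside each other between genes only per junction, and are given so here as means over the junctions without a dropped value, with the SD of 4 libraries. These means include junctions with few reads in every library, such as that between Itgb2 blocks 1 and 2 (2 to 8 reads). Of the junctions kept, 4 of 9 in Itgb2 and 12 of 20 in Itgam averaged at least 100 reads at a common library total. In Cop1WT library 1 the 4 of Itgb2 held 597 to 945 reads, and the 31 of Itgal held 201 to 808. The places of Itgb2 and Itgam in the order thus depend on the junctions averaged. In Cop1WT the order was Itgb7 (69.9 ± 21.9 RPM per junction), Itgal (24.6 ± 1.46), Itga4 (20.6 ± 2.17), Itgb2 (16.3 ± 1.83), Itgb1 (14.9 ± 1.62), Itga6 (11.6 ± 1.37), Itgam (6.47 ± 3.40) and Itga5 (4.69 ± 0.21). The ranges of Itgb7 and Itgal, and those of Itga4 and Itgb2, were separate, while the ranges of the other neighbours in that order overlapped. Within each Cop1WT library Itgal nonetheless lay above Itga4, Itgb1 above Itga6 and Itga6 above Itgam. In Cop1KO the order was Itgb7 (90.4 ± 25.0 RPM per junction), Itgb2 (31.7 ± 6.83), Itgal (30.5 ± 3.87), Itgam (27.2 ± 13.5), Itgb1 (20.7 ± 1.95), Itga6 (11.2 ± 2.52), Itga4 (9.28 ± 0.79) and Itga5 (5.43 ± 0.97). There the range of Itgb7 was separate from that of Itgb2, Itgb1 from Itga6 and Itga4 from Itga5, and the ranges of the other neighbours in that order overlapped. Within each Cop1KO library Itga6 nonetheless lay above Itga4. Itgb1 lay below Itgb2 and Itgal in every Cop1KO library. Itgam reached from 7.73 RPM per junction in Cop1KO library 4, below Itgb1, Itga6 and Itga4 there, to 36.8 in library 3, so that its place in the order of means is not its place in each library. Over all junctions Itga4 (17.4) stood after Itgb2 (18.7) in Cop1WT.

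The ratio of an alpha subunit's level per junction to that of its beta partner shows how the 2 genes of a pair shifted against each other, and is given as log2 without a test. Itga4 over Itgb1 was 0.84, 0.55, 0.13 and 0.34 in Cop1WT libraries 1 to 4 and -1.15, -1.30, -1.14 and -1.02 in Cop1KO, so that Itga4 had the more reads per junction in every Cop1WT library and Itgb1 in every Cop1KO library. Itga4 over Itgb7 was 1.54 lower on the log2 scale in Cop1KO, -1.70 ± 0.56 against -3.24 ± 0.36 (SD, n = 4), with no overlap. Itga6 over Itgb1 also had no overlap, at -0.36 ± 0.12 and -0.91 ± 0.24, whereas Itga5 over Itgb1 overlapped, at -1.66 ± 0.16 and -1.94 ± 0.35. Itgam over Itgb2 was -1.34, -1.27, -0.81 and -2.72 in Cop1WT and 0.10, 0.05, -0.12 and -1.73 in Cop1KO, higher in Cop1KO at each library number but overlapping through library 4. Itgal over Itgb2 was 0.60 ± 0.19 in Cop1WT and -0.04 ± 0.45 in Cop1KO, also overlapping. The means of Itgb2 and Itgam include junctions with few reads in every library. The sign of a ratio to Itgb2 therefore does not show which subunit had more RNA.

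**Figure D5:**
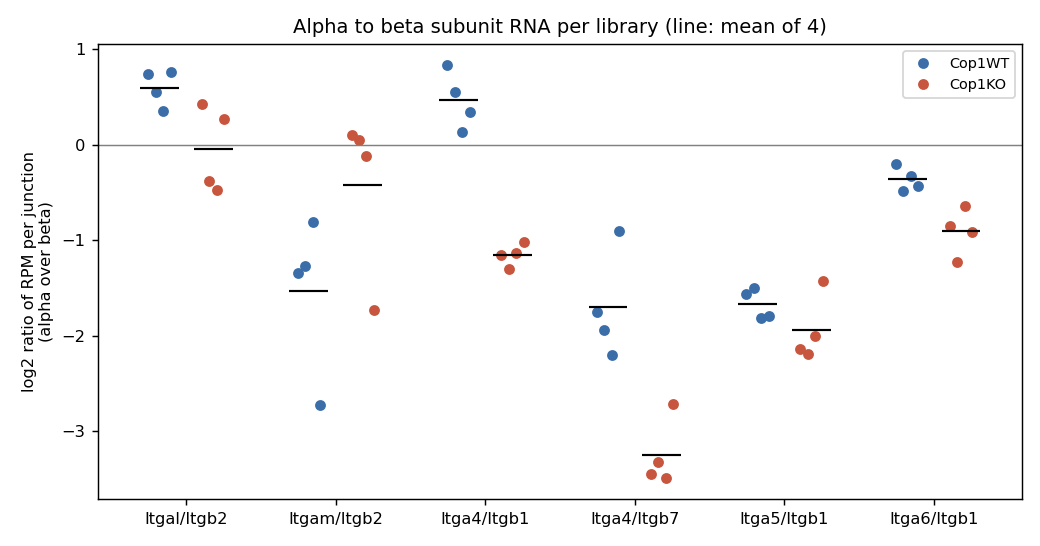
Log2 ratio of alpha to beta subunit, from the mean RPM per junction without junctions that have a dropped value (vertical axis), for 6 integrin pairs, with 1 point per library and a line at each group mean. Itga4/Itgb1, Itga4/Itgb7 and Itga6/Itgb1 are lower in every Cop1KO library than in any Cop1WT library; the other 3 pairs overlap.

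Selectin ligands and the enzymes that modify them act before integrins take hold, when white blood cells roll on vessel walls. Of the 13 genes tested in that list, 5 rose and the other 8 did not pass (7 rose with the block, and 7 rose and 1 fell without dropped junctions), with a median log2 difference of 0.44. Over all genes 8.49% rose, and 12.3% with the block. Without dropped junctions 10.4% of all genes rose and 16.4% fell. Selplg, the scaffold of the selectin ligand on leukocytes, was at 46.3 to 78.2 RPM in Cop1WT and 90.5 to 107 RPM in Cop1KO (0.75 ± 0.15, adjusted p = 0.013). B4galt1, a galactosyltransferase, rose by 0.59 ± 0.12 (adjusted p = 0.012), and Chst15, a sulfotransferase, by 0.92 ± 0.17 (adjusted p = 0.0086), both with any 1 library left out, as did Selplg. St3gal4, a sialyltransferase, rose by 0.33 ± 0.09 (adjusted p = 0.030) but lost its call without any 1 of the libraries other than Cop1WT 3 and Cop1KO 4 (highest adjusted p = 0.083).

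Integrin genes have alternative exons, and the junction table allows the use of each junction to be set against the rest of its gene. Of 124 junctions of the 8 genes with enough reads and no dropped value, limma's diffSplice called 0, and 0 had an unadjusted p below 0.05. The smallest unadjusted p was 0.13, in Itgal. Variation of a whole gene between libraries enters the error of each junction in this fit, which has no block. At the junction of smallest p the SE was 0.78 in Itgam and 0.37 in Itgb7. The lack of calls thus does not show that junction use was unchanged. Over all genes it called 10 of 35410 junctions (0.0282%). Alternative choices are given as shares of reads in 3 of the genes, by the numbered exon blocks of the table, which carry no coordinates. In Itga6, reads that skip block 29 were 9.19%, 15.7%, 11.2% and 11.4% in Cop1WT libraries 1 to 4 and 13.1%, 12.05%, 12.3% and 10.0% in Cop1KO, from 166 to 358 reads a library. In Itgal, the second donor of block 19 took 34.7% ± 0.53 in Cop1WT and 33.6% ± 2.91 in Cop1KO. In Itgam, the first acceptor of block 14 took 41.5% ± 4.44 and 43.0% ± 2.00 (SD, n = 4), beside means of its level that differed 3.14-fold. The groups overlapped in each of the 3.

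For each integrin, the 3 genes whose log2(RPM + 1), centred on its own mean, differed least over the 8 libraries were found among the 7697 genes that averaged 10 RPM or more. The measure is the root mean square difference, and it is a description of these libraries. It was taken on sums over all junctions, dropped values included. Itga4 was nearest to Cop1 itself (0.086), followed by Kif17, a kinesin motor (0.10), and Ttyh3, an anion channel family member (0.11). Itgam was nearest to Emb, the cell adhesion glycoprotein embigin (0.16), Pirb, an inhibitory receptor of myeloid cells (0.23), and Ly6a, the surface antigen Sca-1 (0.27). Itgb7 was nearest to Pxn, the adhesion adaptor paxillin (0.14), Myo1f, a leukocyte myosin (0.15), and Map3k14, a kinase of the noncanonical NF-kB pathway (0.16). Itgb2 was nearest to Ctbs (0.12), Camta2 (0.15) and Itgb1 (0.16), and Itgb1 to Rab5b, Rnaset2a and Ppt2 (0.096 to 0.097). Itgal was nearest to Stx5a (0.074), Zfp277 and H13, Itga5 to Rbfa (0.075), Med6 and Erlin2, and Itga6 to Ext2 (0.11), Acadm and Crtc2.

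Alpha subunits outside the 8 genes went in both directions. Of 7 tested, 1 rose and 2 fell (4 fell with the block), with a median log2 difference of -0.45. Of all genes tested, 8.49% rose and 12.1% fell (15.7% fell with the block). Itga1, a collagen-binding partner of Itgb1, was at 48.9, 33.7, 102 and 35.4 RPM in Cop1WT and at 349, 205, 309 and 88.0 RPM in Cop1KO (2.07 ± 0.49, adjusted p = 0.022), with library 4 again the lowest of Cop1KO. Itgae, the CD103 partner of Itgb7, was at 267, 206, 68.5 and 166 RPM in Cop1WT and at 63.1, 65.5, 48.5 and 15.6 RPM in Cop1KO (-1.88 ± 0.54, adjusted p = 0.041). Itgad, the CD11d partner of Itgb2, was at 2.91 to 4.13 RPM in Cop1WT and 0.58 to 2.19 RPM in Cop1KO (-0.97 ± 0.24, adjusted p = 0.025). Itga1 and Itgae passed in 2 of 8 fits with a library left out and Itgad in 4 of 8. Itga1 and Itgae lost the call without Cop1WT 1, 2 or 4 or Cop1KO 1, 2 or 3, and Itgad without Cop1WT 2 or 3 or Cop1KO 2 or 3. Itgae also missed the threshold with TMM factors (adjusted p = 0.051) and without both libraries numbered 4 (0.074). None of the 3 other beta subunits tested passed. Itgb3, the partner of the platelet subunit Itga2b, stood at 172 ± 63.9 RPM in Cop1WT and 168 ± 46.5 RPM in Cop1KO, and Itgb5 at 14.7 ± 13.8 and 18.7 ± 14.2 RPM (SD, n = 4). At an unadjusted p below 0.05 none of the 3 was counted either.

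Of 23 tested genes that switch integrins on, 1 rose and 2 fell (5 rose and 3 fell with the block), with a median log2 difference of 0.13. Of all genes 20.6% passed, and 28% with the block. The activators Tln1 (talin) and Fermt3 (kindlin of blood cells) did not pass. Tln1 was at 3154 to 3479 RPM in Cop1WT and 2859 to 3699 RPM in Cop1KO, and Fermt3 at 748 to 857 and 828 to 966 RPM. Rasgrp1, an exchange factor for Ras, was at 80.1, 106, 56.2 and 75.1 RPM in Cop1WT and at 20.5, 20.7, 15.1 and 20.2 RPM in Cop1KO (-1.97 ± 0.20, adjusted p = 0.0012), and it fell with any 1 library left out. Rap1b, a small GTPase that brings talin to integrins, rose by 0.34 ± 0.08 (adjusted p = 0.025), and Rapgef1, an exchange factor for Rap1, fell by 0.36 ± 0.11 (adjusted p = 0.044). Both lost the call without any 1 library other than Cop1WT 3 and Cop1KO 4, and Rapgef1 also with TMM factors (adjusted p = 0.085) and without both libraries numbered 4 (0.061). Of 9 integrin inhibitors, 1 rose and 8 did not pass (2 rose with the block), with a median of 0.21. It was Slfn2, a schlafen gene better known for keeping immune cells quiescent than for an action on integrins, at 15.7 to 24.0 RPM in Cop1WT and 37.7 to 69.8 RPM in Cop1KO (1.47 ± 0.22, adjusted p = 0.0048).

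Among 29 genes of the adhesion complex and of signalling from bound integrins, 6 rose and 2 fell (10 rose with the block), with a median log2 difference of 0.19. The shares over all genes were 8.49% higher and 12.1% lower, and 12.3% higher with the block. Cd9, a tetraspanin that associates with integrins, was at 146, 129.8, 122 and 153 RPM in Cop1WT and at 414, 362, 404 and 322 RPM in Cop1KO (1.44 ± 0.11, adjusted p = 0.000655). Cd47, a surface protein that associates with integrins and restrains phagocytes, was at 577 to 657 RPM in Cop1WT and 882 to 1273 RPM in Cop1KO (0.87 ± 0.12, adjusted p = 0.0032). The 2 that fell are parvins, adaptors that bind integrin-linked kinase. Parvg, the parvin of blood cells, was at 577, 518, 611 and 573 RPM in Cop1WT and at 359, 373, 382 and 377 RPM in Cop1KO (-0.61 ± 0.07, adjusted p = 0.0023). Parvb was at 32.5 to 57.5 and 3.46 to 12.9 RPM (-2.30 ± 0.36, adjusted p = 0.0051). These 4 kept their calls with any 1 library left out. Of 12 integrin ligands, 5 rose and 7 did not pass, with a median of 0.50. C3, the complement protein whose cleaved form Mac-1 binds, was at 10.1, 18.5, 152 and 13.03 RPM in Cop1WT and at 1391, 2581, 1887 and 143 RPM in Cop1KO, overlapping through Cop1KO library 4 (5.25 ± 1.09, adjusted p = 0.014). Lama5, a laminin chain, was at 460 to 696 RPM in Cop1WT and 1264 to 1625 RPM in Cop1KO (1.28 ± 0.15, adjusted p = 0.0023). Over the 7 lists of integrin-related genes, 19 of 96 tested were higher (19.8%) and 6 lower (6.25%), against 8.49% and 12.1% of all genes, and with TMM factors 21 were higher and 4 lower, against 9.92% and 8.83%.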

How the data were processed

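RNA of 8 FT1CL libraries (4 Cop1WT, 4 Cop1KO) was sequenced; per the labels' protocols, 2 µg of total RNA entered each strand-specific library. Trimmomatic 0.39, kallisto and build mm10 are named per the submitters' processing notes; for the junction aligner, the annotation and the use of strand in counting the entry is: not given in the sources used here. The authors deposited 1 normalised signal value per exon-exon junction, with AltAnalyze identifiers per the file headers. Tested on the values, each is the junction's reads plus 1, scaled by the library's junction reads and a length of 60 nt. Inverting this gave whole reads for 100% of values above the shared floor (0.854), within 0.001 of a read.

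Reads were summed per gene and scaled to RPM (per 1000000 junction reads). A read that spans several junctions counts at each. The 11003 genes averaging 1 RPM or more were tested with limma 3.58.1 (R 4.3.3; trend, robust) on log2(RPM + 1), two-sided, with Benjamini-Hochberg adjustment over all genes and a threshold of 0.05. Fold changes on this scale understate changes near 1 RPM. For junction use, diffSplice (limma) was run on log2(RPM + 0.05). On simulated data with 200 genes changed 2-fold, limma recovered 98.5% of the changed genes tested, and 2.97% of its calls were false, over 10995 genes tested. With single junctions changed 2-fold, diffSplice recovered 99.5% of the changed junctions tested, over 35451 junctions tested. Of its calls, 6.25% lay in genes without a changed junction. Calls of unchanged junctions in a gene with a changed one were not counted as false. Recovery at the spread between the real libraries was not tested. In these, Itgam on all junctions missed the threshold without the block at a log2 difference of 1.66 ± 0.53 (SE). Symbols matched 13247 of 13378 genes. Gene coordinates are from Gencode M21 on mm10.

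Libraries with the same number in the labels deviated together from their group means (r = 0.32, 0.29, 0.36 and 0.55 for numbers 1 to 4, at most 0.15 between different numbers), so the numbers pair them. The reported test has no block, and the blocked fit is an alternative. No library was a duplicate of another in its group (lowest chi-square over its degrees of freedom 31.9). Other alternatives were scaling, pseudocount, filter, left-out libraries and the junctions summed.

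The integrins, the 7 lists of related genes and the 10 marker lists were chosen with earlier results of these data known. Genes named are the 8 integrins, Cop1, Trib1, up to 4 members of a list with the smallest adjusted p (or 2 with the highest mean where none passed), and the 3 genes most like each integrin. Others (Tln1, Fermt3) were chosen after their values were seen. 1 gene that the rule also named is not reported here.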

Additional observations from a re-analysis of the deposited data

Results flagged for a closer look

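Itgb7 in Cop1WT library 4 stood at 522 RPM, away from the other 3 Cop1WT libraries at 1104 to 1178 RPM. The gap to the nearest was 0.887 of the group's whole range, above Dixon's limit of 0.829 for 4 values. It was the only one of 26 groups of 4 values, over the 8 integrins, to pass that limit, and chance alone passes it in about 1 group in 20. In the same library Itgam (93.9 RPM) and the late neutrophil markers (7.86 RPM in sum) were also the lowest of Cop1WT, and Itgb7 in Cop1KO library 4 (814 RPM) was the lowest of Cop1KO.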

How the results depend on the processing

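Itga4 kept its direction and its call in all 29 alternatives, and Itga5 missed the threshold in all of them. Results that changed with a setting are given by setting. With TMM factors Itgal passed (0.38). With the replicate block Itgal (0.31), Itgam (1.66) and Itgb7 (0.39) passed, the list genes called higher went from 19 to 31, and no call of an integrin was lost. The share of all genes called higher went from 8.49% to 12.3% in that fit. Without dropped junctions Itgal (0.31) and Itgam (2.04) passed, and with the block as well Itgal (0.31), Itgam (2.04) and Itgb7 (0.39), with 4039 of all genes called in place of 2264 and 37 higher and 11 lower list genes in place of 19 and 6. The calls over all genes with that block were 15.2% higher and 21.6% lower, in place of 8.49% and 12.1%. Without both libraries numbered 4 Itgam passed (1.65), and without dropped junctions too (2.11), with 3615 genes called and 40 higher and 10 lower list genes. With no filter on low genes Itgb1 was lost (0.40). The median over junctions turned Itgb2 (-0.64) and the Itgal/Itgb2 ratio (0.76 in place of -0.36) and lowered Itgam to 0.54, with 1492 genes called and 12 list genes higher. The cause of these changes was not tested, other than that 9 of 18 Itgb2 junctions hold dropped values. Itgal holds none, and without dropped junctions its log2 difference stayed the same. Only its SE (0.098 and 0.095) and the adjustment over all genes changed. With 1 library left out the log2 differences ran from 0.23 to 0.37 for Itgal, 1.24 to 2.57 for Itgam, 0.56 to 1.03 for Itgb2, 0.12 to 0.59 for Itgb7, 0.089 to 0.27 for Itga5, -0.22 to 0.021 for Itga6 (0.016 without Cop1KO 2 on all junctions), and 0.31 to 0.53 for Itgb1, which lost its call in 7 of 16 such fits. The genes called ran from 1215 to 3815, list genes higher from 8 to 36 and lower from 3 to 11. No junction of the 8 genes was called under any of its 11 alternatives. Of the 46 other genes the list rule names, 22 kept direction and call throughout. Signs turned only for 3 genes never called in either direction. The Cd3g log2 fold change was 0.048 with TMM, 0.016 at pseudocount 5, 0.00907 on summed deposited values and 0.19 without both libraries 4, with or without dropped junctions, and 0.31, 0.27 and 0.57 without Cop1WT 1, Cop1WT 2 and Cop1KO 4 (range with 1 library left out -0.38 to 0.57). Itgb3 was -0.32 without both libraries 4, -0.12 on its most-read junction, -0.15, -0.15 and -0.17 without Cop1WT 3, Cop1WT 4 and Cop1KO 4, and without dropped junctions -0.040, -0.040 with the block, -0.35 without both libraries 4, and -0.18, -0.17, -0.03 and -0.21 without Cop1WT 3, Cop1WT 4, Cop1KO 1 and Cop1KO 4. Itgb5 was -0.058 without Cop1WT 4 (range -0.058 to 1.10). Count-based tests on recovered reads (DESeq2, edgeR) were planned and not run. A check of the units did not accept 2 of the 8 columns as whole reads, although values above the floor inverted to whole reads in all 8. Depth limits genes near 1 RPM; the 8 integrins held at least 93.9 RPM in every library.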
